A study of Mus musculus with 6 samples.

Results

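The nonclassical class I genes of the mouse major histocompatibility complex were followed in RNA of E14.5 palatal shelves. The 8 genes H2-T23, H2-T22, H2-T24, H2-Q4, H2-Q6, H2-Q7, H2-Q10 and H2-M3 were taken by symbol from the 55631 gene IDs of the expression table, and a row was found for each of them. The KO embryos carried p130Casfl/fl alleles and a CAG-Cre transgene, and the control embryos carried p130Casfl/fl alleles with no Cre named, so both groups had loxP sites in the gene for the adhesion adaptor p130Cas. There were 3 libraries per group, and wherever 3 values of a group are given, they stand in the order of replicates 1 to 3. The CAG promoter is active in most cell types, so Cre was not restricted to the palatal mesenchyme. The labels give neither strain nor litter, and p-values therefore measure only the spread between these samples, which may be technical. Values are FPKM, a fragment count scaled to gene length and sequencing depth, so that levels can be compared between genes per length.

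Class I molecules are membrane proteins that pair with the light chain B2m. The classical molecules H2-K and H2-D show peptides from inside the cell to T cells, whereas the nonclassical molecules vary little between strains, are often made at lower levels and serve more specialised receptors. H2-T23 encodes Qa-1, which displays leader peptides of other class I molecules to the inhibitory receptor CD94/NKG2A on natural killer cells. H2-T22 is recognised by a subset of gamma-delta T cells and holds no peptide, H2-Q7 encodes the lipid-anchored molecule Qa-2, H2-Q10 is known as a soluble molecule of the liver, and H2-M3 presents peptides that begin with formylmethionine, as bacterial and mitochondrial proteins do. Interferons and the transactivator Nlrc5 are known to raise class I genes.

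In control shelves the members stood at low to moderate levels or were listed at 0. In KO shelves 6 of the 8 lay above control in every library, beside 3.56% of 25387 genes above 0 in any library. H2-Q6, which is among these 6, was listed at 0 in all control libraries. H2-Q4 averaged 7.72 ± 1.88 FPKM in KO and 2.63 ± 0.218 FPKM in control libraries, and H2-T23 averaged 10.47 ± 1.05 FPKM in KO and 5.0 ± 0.721 FPKM in control libraries (SD, n = 3 each). Both rose in KO shelves in limma, a linear model with a variance estimate shared across genes. H2-T22 and H2-T24 were tested and did not pass, and the other 4 members averaged under 1 FPKM and were left out of the test. In bulk RNA more cells of a type and more RNA per cell cannot be told apart.

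Most of these genes have interferon-type letters in front of their start, and the windows that hold them are shown because they let the promoters of the members that rose be set beside those that did not. Promoter sequences of 250 bases before to 50 after the start were taken from RefSeq (GRCm38.p6) and were found for 7 of the 8 members and for the classical genes H2-K1 and H2-D1. The letters searched, on both strands, were GAANNGAAA or GAAANNGAA for interferon-type elements, GGGNNTTCC for kappaB-type elements, TGATGAC for the CRE-type element of class I promoters, and CCAAT. The spellings were chosen with the promoter sequences known. Capitals mark matches of the interferon-type, kappaB-type and CRE-type letters, and each line is a 110-base stretch read 5′ to 3′ on the gene's strand.
H2-Q4, chr17:35379429-35379538, plus strand: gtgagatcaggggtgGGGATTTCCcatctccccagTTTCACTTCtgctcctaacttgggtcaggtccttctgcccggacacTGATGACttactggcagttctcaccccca
H2-T23, chr17:36032750-36032859, minus strand: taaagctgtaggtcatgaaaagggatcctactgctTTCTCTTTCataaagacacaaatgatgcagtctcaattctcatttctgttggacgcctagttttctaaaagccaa
H2-T22, chr17:36042858-36042967, minus strand: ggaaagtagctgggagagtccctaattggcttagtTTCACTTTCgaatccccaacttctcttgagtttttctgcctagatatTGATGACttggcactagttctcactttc
H2-Q6, chr17:35424663-35424772, plus strand: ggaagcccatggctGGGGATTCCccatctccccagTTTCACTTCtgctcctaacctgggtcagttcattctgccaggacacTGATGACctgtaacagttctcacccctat
H2-Q7, chr17:35439007-35439116, plus strand: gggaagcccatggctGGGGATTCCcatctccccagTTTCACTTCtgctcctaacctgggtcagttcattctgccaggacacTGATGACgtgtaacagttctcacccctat
H2-Q10, chr17:35469899-35470008, plus strand: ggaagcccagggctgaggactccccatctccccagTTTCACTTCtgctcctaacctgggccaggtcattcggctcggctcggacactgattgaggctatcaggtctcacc
H2-M3, chr17:37270098-37270207, plus strand: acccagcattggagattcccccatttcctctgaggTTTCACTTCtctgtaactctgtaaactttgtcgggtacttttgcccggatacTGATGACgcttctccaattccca
H2-K1, chr17:34000363-34000472, minus strand: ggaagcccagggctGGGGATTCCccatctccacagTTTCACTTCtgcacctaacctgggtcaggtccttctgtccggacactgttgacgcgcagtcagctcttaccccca
An interferon-type match stood in the promoter windows of all 7 members that have one, between positions -190 and -101 from the start, whereas 14.8% of 32851 RefSeq promoter windows hold either spelling. H2-T23 and H2-T22 held GAAANNGAA, which is in 8.56% of all windows, and the 5 others held GAANNGAAA, which is in 7.52%. The kappaB-type letters were found in H2-Q4, H2-Q6 and H2-Q7 and in both classical genes, against 5.82% of all windows. The CRE-type letters were found in H2-T22, H2-Q4, H2-Q6, H2-Q7 and H2-M3 and in H2-D1, against 3.23% of all windows. H2-Q10 had the interferon-type match alone, and H2-T23 had it with a CCAAT match, which 37.4% of all windows hold. These are matches of letters and were not shown to be bound. Members of a gene family share sequence by descent, so their promoters are not independent cases.

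**Figure D1:**
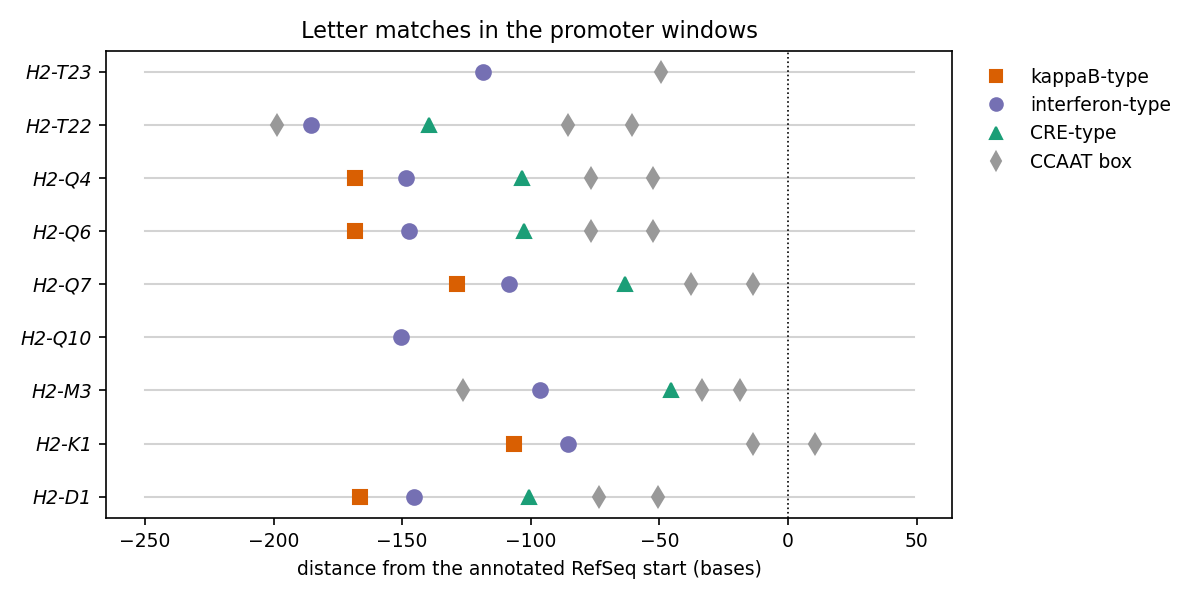
Position of letter matches in the RefSeq promoter windows of 7 nonclassical and 2 classical class I genes, with the distance from the annotated start in bases on the x axis and 1 row per gene. Squares are kappaB-type, circles interferon-type and triangles CRE-type matches, and diamonds are CCAAT boxes; every row has a circle, and the row of H2-Q10 has nothing else.

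The deleted gene and the tissue were checked first. Bcar1, which encodes p130Cas, stood at 1.69, 1.69 and 1.31 FPKM in KO libraries and at 1.80, 1.97 and 2.09 FPKM in control libraries, and its log2 fold change of FPKM + 1, -0.21 ± 0.11 (SE), missed the threshold (limma, adjusted p = 1.00). A whole-gene value includes exons outside the loxP sites and is a weak check of the deletion. All 12 palatal mesenchyme markers were tested and found above 1 FPKM on average, with 0 called. FPKM summed to between 384979 and 424993 per library. Each library had a smallest value above 0, between 0.1001 and 0.118 FPKM, that 84 to 109 genes shared exactly, so a gene listed at 0 is one below that floor and may still be transcribed. How many reads a value rests on is unknown.

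H2-Q4, a gene of the Q region also known as Qb-1, occupies bases 35379617 to 35385290 of chromosome 17 (GRCm38, plus strand, ENSMUSG00000035929). It stood at 6.49, 9.88 and 6.78 FPKM in the 3 KO libraries and at 2.79, 2.73 and 2.38 FPKM in the 3 control libraries. The groups did not overlap, and the lowest KO library was 2.33 times the highest control library. The KO mean was 2.93 times the control mean, and log2(FPKM + 1) differed by 1.24 ± 0.15 (SE; limma, adjusted p = 0.0154). This scale understates the change of low genes. The call was lost without control replicate 1, 2 or 3 (limma, adjusted p = 0.0651, 0.0803 and 0.115), and over all alternatives it lay between 0.00284 and 0.115.

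H2-T23, the Qa-1 gene, lies from 36029773 to 36032855 on the minus strand of chromosome 17 (ENSMUSG00000067212). It stood at 10.16, 11.6 and 9.61 FPKM in the 3 KO libraries and at 5.07, 5.68 and 4.24 FPKM in the 3 control libraries. Every KO library was above every control library, and the KO mean was 2.10 times the control mean. The log2 fold change was 0.94 ± 0.11 (SE; limma, adjusted p = 0.0156). The call was lost without KO replicate 1 and without control replicate 1 or 3 (limma, adjusted p = 0.0684, 0.0747 and 0.0645), and over all alternatives it lay between 0.00807 and 0.0747. Across the 14714 genes tested, 0.326% were called higher in KO and 0.0068% lower, and among the members 2 of the 4 tested were called higher and 0 lower. At an unadjusted p under 0.05 limma had 3 members higher and 0 lower, beside 2.09% of tested genes higher and 1.92% lower. All 4 tested members averaged at least 1 FPKM in the control libraries too, so none entered the test through its KO level alone. Without overlap and higher in KO were 3 of the 4, beside 3.27% of tested genes, and without overlap and lower were 0, beside 5.79%.

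H2-T22 was the most abundant member and differed less between the groups. It lies from 36037128 to 36042747 on the minus strand (ENSMUSG00000056116) and stood at 13.1, 14.3 and 13.3 FPKM in the 3 KO libraries and at 9.37, 10.7 and 11.1 FPKM in the 3 control libraries. The groups did not overlap, and the KO mean was 30.5% above the control mean. The log2 fold change of 0.36 ± 0.08 (SE) missed the threshold (limma, adjusted p = 0.369) and did so under each of its alternatives (0.182 to 0.936). Of all tested genes, 1.80% had a higher log2 fold change.

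H2-T24 lies from 36005695 to 36020560 on the minus strand (ENSMUSG00000053835), between the other T-region members and the non-class I gene Gnl1. It stood at 1.41, 1.012 and 1.69 FPKM in the 3 KO libraries and at 1.54, 0.918 and 0.894 FPKM in the 3 control libraries. The groups overlapped, with control replicate 1 above KO replicates 1 and 2, and the log2 fold change of 0.17 ± 0.16 (SE) missed the threshold (limma, adjusted p = 1.00). The median log2 fold change of the 4 tested members was 0.65, beside -0.02 for all tested genes.

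**Figure D2:**
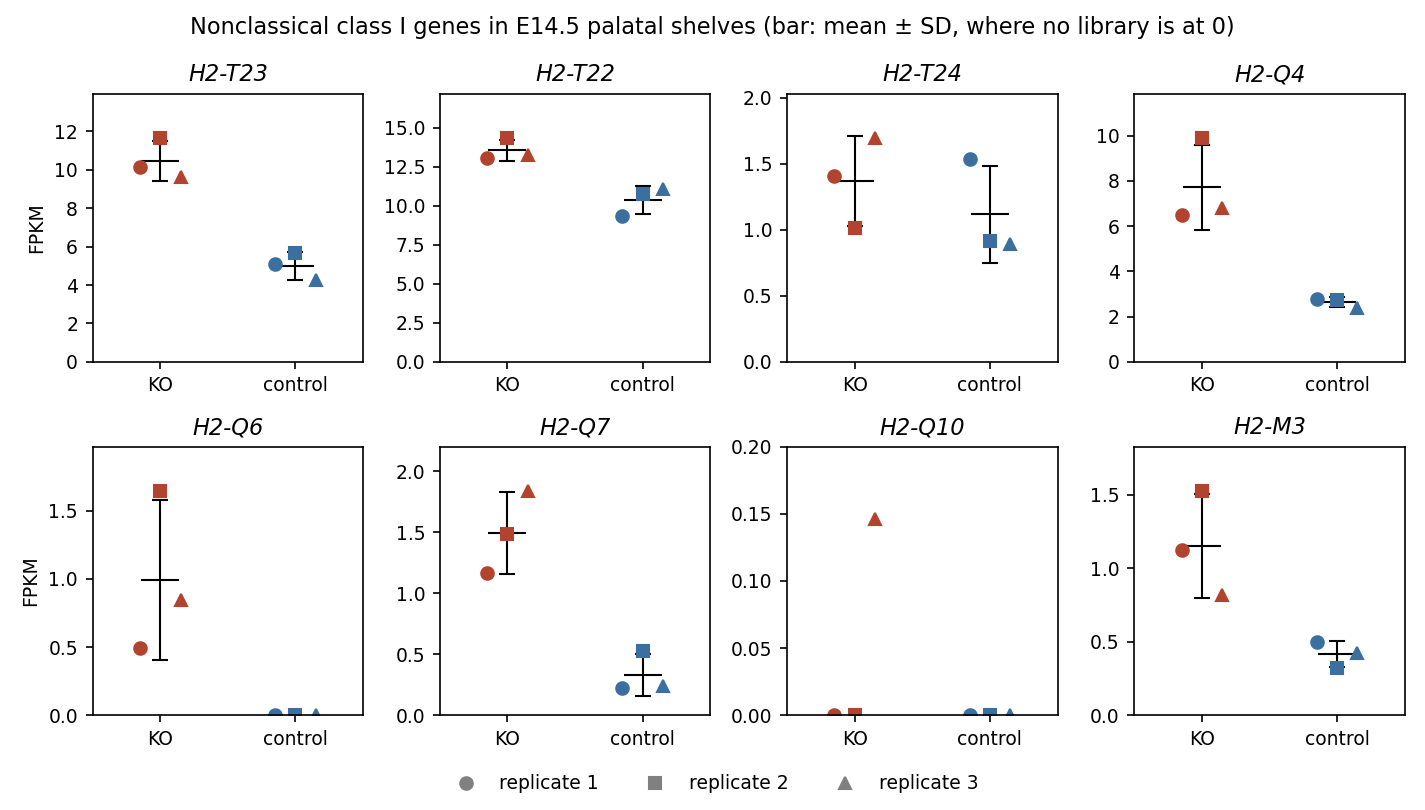
FPKM of the 8 nonclassical class I genes in each library, KO on the left and control on the right of each panel, with a symbol for each replicate number and a y axis of its own per gene. Bars show the mean ± SD of 3 libraries where none is at 0; the KO points lie above all control points for each gene except H2-T24 and H2-Q10.

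The 4 members under 1 FPKM were read from their values. H2-Q7, the Qa-2 gene (ENSMUSG00000060550, 35439155 to 35443773, plus strand), stood at 1.16, 1.49 and 1.83 FPKM in the 3 KO libraries and at 0.224, 0.529 and 0.235 FPKM in the 3 control libraries. All KO values were above all control values, with a KO mean 4.54 times the control mean. With no filter on low values limma called it higher (log2 fold change 0.91 ± 0.14 SE, adjusted p = 0.0476), as it did 0.264% of 25387 genes, and with a filter at 0.1 FPKM it did not (adjusted p = 0.0548). H2-Q6 (ENSMUSG00000073409, 35424850 to 35430055, plus strand), a close relative of the Qa-2 gene, stood at 0.493, 1.64 and 0.849 FPKM in the 3 KO libraries and was listed at 0 in all control libraries. No fold is given against 0, and it missed the threshold in limma with no filter (adjusted p = 0.135).

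H2-M3 (ENSMUSG00000016206, 37270220 to 37274484, plus strand), which lies furthest from the others, stood at 1.12, 1.52 and 0.815 FPKM in the 3 KO libraries and at 0.496, 0.324 and 0.426 FPKM in the 3 control libraries. The groups did not overlap and the KO mean was 2.78 times the control mean, but limma with no filter did not call it (adjusted p = 0.293). H2-Q10 (ENSMUSG00000067235, 35470089 to 35474563, plus strand) was listed at 0 in all libraries except KO replicate 3, at 0.146 FPKM, close to that library's floor of 0.110 FPKM. Groups without overlap, higher in KO, were found for 6 of the 8 members, and for 3.56% of the 25387 genes above 0 in at least 1 library. For each of these 6 a two-sided exact permutation test reached p = 0.1, the smallest that 3 against 3 libraries allow. KO replicate 2 held the highest value of 5 members and KO replicate 3 that of the other 3.

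In KO libraries H2-T22 stood above H2-T23 and H2-Q4 above H2-Q7 with no overlap, while H2-T23 and H2-Q4 overlapped across libraries, although H2-T23 was higher within each of the 3. H2-Q7, H2-T24, H2-M3 and H2-Q6 followed at means between 1.49 and 0.995 FPKM, and each overlapped its neighbour in the order. In control libraries the order was H2-T22, H2-T23, H2-Q4, H2-T24 and H2-M3, with no overlap between neighbours, and then H2-Q7, which overlapped H2-M3.

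The size of the response was compared between the 4 tested members by the difference of their log2 values within each library. The genotype difference of H2-Q4 exceeded that of H2-T22 by 0.89 ± 0.17, and that of H2-T23 exceeded it by 0.58 ± 0.14 (SE over libraries), with all KO libraries apart from all control libraries. H2-Q4 exceeded H2-T23 by 0.30 ± 0.12, also without overlap, and H2-T22 and H2-T24 differed by 0.19 ± 0.26 with overlap. Of the 6 pairs, 5 had the smallest possible exact permutation p of 0.1 (adjusted p = 0.12 over the 6), so none could pass at this number of libraries. On the scale of FPKM + 1, H2-Q4 and the light chain gene B2m had nearly equal log2 fold changes. These differed by -0.01 ± 0.18 (SE over libraries, exact permutation p = 1). That scale understates the change of the lower gene, H2-Q4. With 0.01 in place of 1 added to FPKM, the log2 fold change was 1.52 for H2-Q4 and 1.26 for B2m.

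**Figure D3:**
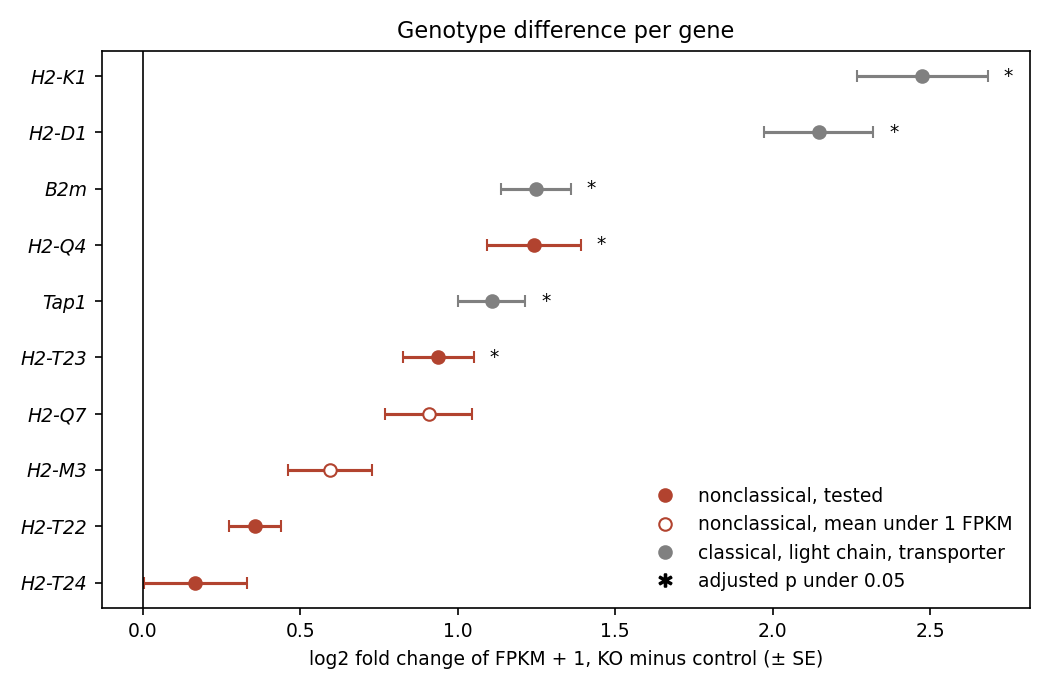
Log2 fold change of FPKM + 1, KO minus control, with its SE from limma, for 6 nonclassical class I genes (red; open where the mean was under 1 FPKM and the SE is from the fit with no filter) and for H2-K1, H2-D1, B2m and Tap1 (grey). H2-Q6 and H2-Q10 are left out because control libraries were at 0; H2-Q4 at 1.24 and H2-T23 at 0.94 carry asterisks for an adjusted p under 0.05, and both classical genes lie above 2.

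The 8 nonclassical genes together made up less of the class I RNA in KO shelves, and the classical genes more. H2-K1 averaged 18.8 ± 6.47 FPKM in KO and 2.45 ± 0.306 FPKM in control libraries, and H2-D1 29.8 ± 8.79 FPKM in KO and 5.78 ± 0.0739 FPKM in control libraries (SD, n = 3 each), and both rose (limma, adjusted p = 0.0024 and 0.00204). Within libraries the log2 fold change of H2-Q4 was below that of H2-K1 by a difference of -1.23 ± 0.10 (SE) and that of H2-T23 by -1.54 ± 0.21, without overlap (exact permutation p = 0.1, the smallest possible, adjusted p = 0.12 over 12 comparisons). FPKM was multiplied by exon length and summed. Reads assigned to the wrong gene stay inside a sum only where that gene is one of those summed. Genes of other names that share sequence, such as A930015D03Rik with H2-T22 and Gm7030 with H2-T23, are in neither sum given here. The sum over the 8 members was 109.9 ± 11.03 in KO and 61.2 ± 3.25 in control libraries (SD, n = 3 each), 1.80 times higher in KO with no overlap, a log2 difference of 0.84 ± 0.09 (SE; exact permutation p = 0.1). Over the 32 genes of the region with class I H2 symbols it was 249.5 ± 53.1 in KO and 88.4 ± 3.63 in control libraries, 2.82 times higher in KO. Any class I gene under another name was not counted. The members held 48.4%, 39.5% and 46.1% of that class I total in KO replicates 1 to 3 and 68.5%, 70.1% and 69.0% in control replicates 1 to 3, with no overlap (exact permutation p = 0.1). H2-T22 alone held 18.9% ± 2.84 in KO and 40.1% ± 3.20 in control libraries, H2-T23 12.3% ± 1.59 in KO and 16.3% ± 1.90 in control libraries, and H2-T24 1.26% ± 0.483 in KO and 2.77% ± 0.982 in control libraries. All 3 T-region members had lower shares in KO with no overlap (exact permutation p = 0.1). H2-K1 and H2-D1 held 21.8% ± 2.75 and 30.4% ± 2.36 in KO libraries, against 8.15% ± 0.965 and 16.9% ± 0.547 in control libraries. H2-Q4, H2-Q6, H2-Q7 and H2-M3 did not share that pattern. H2-Q6 held 0.789% ± 0.308 in KO libraries and was listed at 0 in control libraries. H2-Q7 held 2.61% ± 0.714 in KO and 1.57% ± 0.753 in control libraries, and H2-M3 0.663% ± 0.135 in KO and 0.680% ± 0.165 in control libraries, both with overlap (exact permutation p = 0.3 and 0.9). The share of H2-Q4 also overlapped between groups, at 8.0% ± 0.299 in KO and 7.74% ± 0.640 in control libraries (exact permutation p = 0.6).

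**Figure D4:**
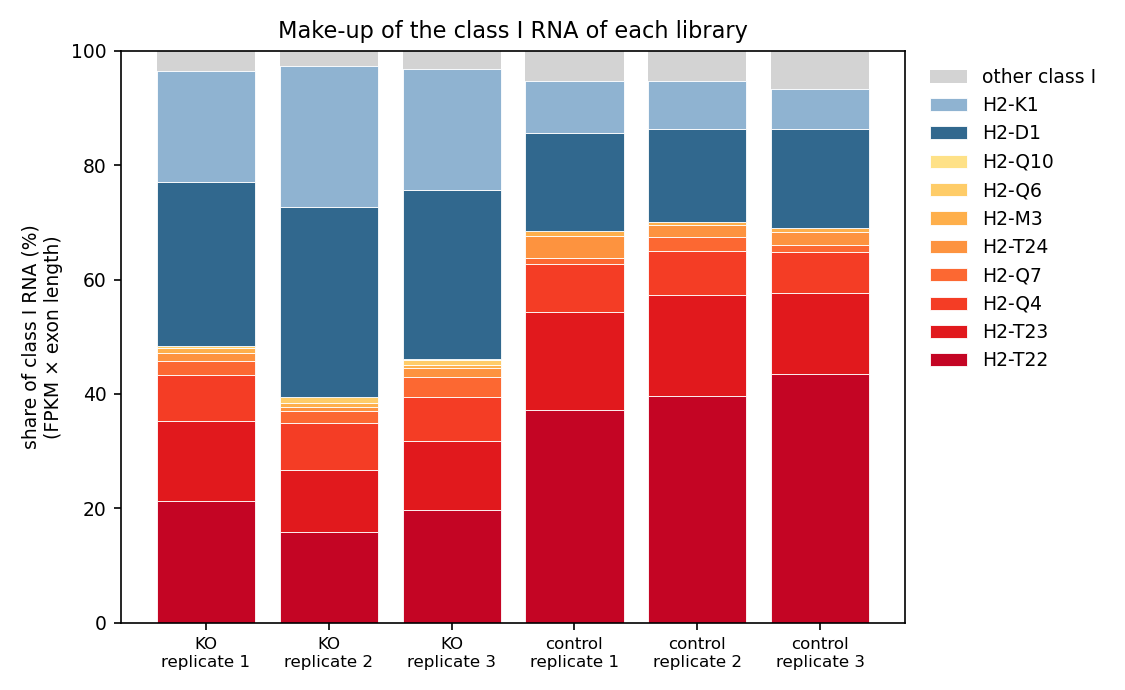
Share of class I RNA (FPKM times exon length, in percent) held by each gene in each library, nonclassical members in yellow to red, H2-D1 and H2-K1 in blue and the remaining class I genes in grey. The yellow to red part reaches between 39.5% and 48.4% in KO libraries and between 68.5% and 70.1% in control libraries.

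Related genes limit how well single members can be told apart. Words of 50, 100 and 150 bases were cut from all annotated transcripts of a member and looked for in transcripts of every other gene, since the read length is not given in the sources used here. At 100 bases H2-M3 and H2-T24 shared 0% of their words, H2-T23 3.15%, H2-Q10 8.01%, H2-Q7 12.0%, H2-Q6 13.0% and H2-Q4 14.1%. H2-T22 shared 31.5%, most of it with A930015D03Rik, an antisense gene on the plus strand from 35994453 to 36038435, which spans H2-T24 and H2-T23 and reaches the 3′ end of H2-T22, and which holds 24% of its words. A930015D03Rik stood at 2.32, 2.22 and 2.50 FPKM in the 3 KO libraries and at 1.82, 2.51 and 2.65 FPKM in the 3 control libraries, with overlap. The strand setting of the counting is not given in the sources used here, so for the shared stretch of H2-T22 reads of the gene and of the antisense gene cannot be told apart. Of the H2-Q4 words 11.8% lie in Gm11131, an antisense gene at its 5′ end that was at or under 0.290 FPKM in each library.

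The Q-region genes are the closest relatives. Over aligned coding bases H2-Q6 and H2-Q7 were 95.4% identical, and H2-Q4 was 91.2% identical to the classical gene H2-K1 and 90.8% to H2-Q7. H2-M3 and H2-T24 were at most 75.4% identical to any of the other genes compared. H2-Q5, a Q-region gene annotated as a polymorphic pseudogene, stood at 0.160, 1.70 and 1.12 FPKM in the 3 KO libraries and at 0.213, 0.175 and 0.125 FPKM in the 3 control libraries, so that KO replicates 2 and 3 were high and KO replicate 1 was within the controls. The values of H2-Q6 and H2-Q7 and the split between them are therefore uncertain. Class I genes also differ in sequence and number between mouse strains, and the strain of the embryos is not given in the labels. A value of 0 or a difference between libraries in a class I gene cannot then be told apart from a difference in haplotype. This holds for H2-Q6, H2-Q7 and H2-Q5, and also for H2-Q4, H2-K1, H2-D1 and the other class I genes of the region. By the words they share, H2-T23 and H2-M3 rest mostly on annotated sequence of their own.

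**Figure D5:**
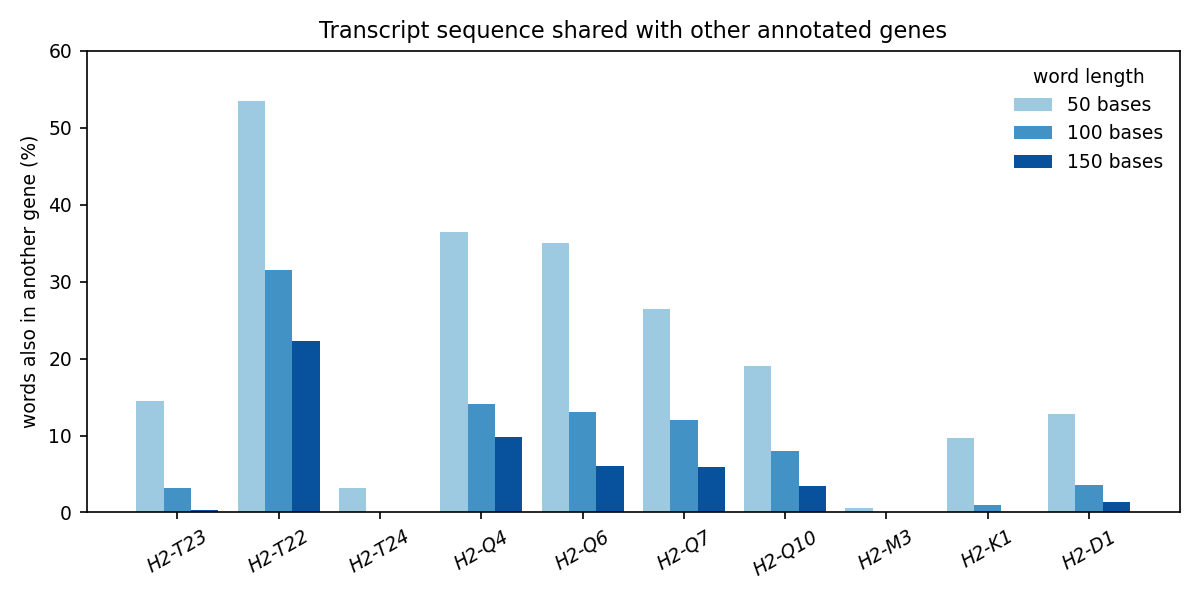
Share of the distinct words of 50, 100 and 150 bases in the annotated transcripts of each gene that also occur in a transcript of another gene, in percent, for the 8 nonclassical and 2 classical class I genes. H2-T22 is highest at each word length, with 31.5% at 100 bases, and H2-M3 and H2-T24 are at 0% there.

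Among other class I-like genes and the genes around the members none was called. A list of 26 further class I and class I-like genes had 6 tested, with 0 called in limma, 0 at an unadjusted p under 0.05 and a median log2 fold change of -0.05. Cd1d1, which presents lipids, averaged 14.8 ± 1.88 FPKM in KO and 16.0 ± 3.51 FPKM in control libraries, and Mr1, which presents vitamin metabolites, 5.82 ± 0.0763 FPKM in KO and 5.65 ± 0.375 FPKM in control libraries. H2-M5, a class I gene of the M region, averaged 1.201 ± 0.276 FPKM in KO and 1.31 ± 0.173 FPKM in control libraries. The 9 tested genes that start within 100 kb of a member had log2 fold changes between -0.10 and 0.04, with 0 called and 0 at an unadjusted p under 0.05 in limma. The largest in absolute size was -0.10, for the mitochondrial ribosomal protein gene Mrps18b.

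Genes that supply class I molecules rose in part. Of 14 genes of class I assembly and peptide supply, 2 rose and 12 did not pass, with a median log2 fold change of 0.23. At an unadjusted p under 0.05 limma had 7 of the 14 higher and 0 lower, beside 2.09% of tested genes higher and 1.92% lower. B2m averaged 143 ± 16.2 FPKM in KO and 59.8 ± 7.17 FPKM in control libraries, and the peptide transporter gene Tap1 8.34 ± 0.957 FPKM in KO and 3.33 ± 0.375 FPKM in control libraries, and these were the 2 that rose (limma, adjusted p = 0.00316 and 0.00476). The immunoproteasome genes Psmb9 and Psmb8 averaged 2.48 ± 0.898 and 2.45 ± 0.858 FPKM in KO libraries, against 0.530 ± 0.0934 and 0.810 ± 0.0938 FPKM in control libraries, and did not pass (adjusted p = 0.0675 and 0.170). Irf9, a factor that carries the interferon signal and belongs to a list of class I transcription genes, rose and averaged 16.1 ± 1.79 FPKM in KO and 7.86 ± 0.967 FPKM in control libraries (limma, adjusted p = 0.0124). The call of Irf9 was lost with the replicate block (adjusted p = 0.0713) and without KO replicate 3 or control replicate 2 or 3 (0.0599, 0.0707 and 0.104), while B2m, Tap1, H2-K1 and H2-D1 kept theirs in all 19 settings.

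Nlrc5, named after its values were seen, averaged under 1 FPKM and was not tested. It stood at 0.244, 0.320 and 0.432 FPKM in the 3 KO libraries and at 0.139 FPKM in control replicate 1, and was listed at 0 in control replicates 2 and 3. Of the class II genes 4 were tested, with 0 called in limma, 0 at an unadjusted p under 0.05 and a median of -0.18. H2-Ab1, a class II beta chain, averaged 1.08 ± 0.288 FPKM in KO and 1.51 ± 0.0830 FPKM in control libraries.

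Genes on a list of candidate receptors of these molecules were mostly listed at 0. Of 13 listed receptor genes 10 were found and 7 were listed at 0 in all libraries, among them Klrd1 and Klrc1, which encode CD94 and NKG2A. Lilrb4a, an inhibitory receptor of myeloid cells, was the 1 tested and rose (limma, adjusted p = 0.0413). Whether it binds any of these molecules was not tested. Its values were 2.42, 2.44 and 1.66 FPKM in the 3 KO libraries and 0.753, 0.390 and 0.472 FPKM in the 3 control libraries. Lilrb4a averaged 2.17 FPKM in KO and 0.538 FPKM in control libraries, so it reached the filter of 1 FPKM only through its KO level. It was no longer called without KO replicate 1 or 2 and without control replicate 1, 2 or 3 (0.187, 0.122, 0.0651, 0.236 and 0.254), at pseudocounts of 0.1 and 0.01 (0.0515 and 0.0587) and with the replicate block (0.0848). Of 14 T and natural killer cell markers 7 were listed at 0 in all libraries, including Cd3e, Ncr1 and Klrb1c, and 0 reached the filter. Macrophage and other leukocyte markers also stood higher in KO libraries: all 21 tested of 25 had a log2 fold change above 0, with a median of 0.45, 0 called in limma and 15 higher at an unadjusted p under 0.05. Their summed level ran from 170 to 230 FPKM in KO and from 124 to 147 FPKM in control libraries, and 0 of the 25 were at 0 throughout. Their part in the rise of H2-Q4 and H2-T23 was not tested, nor was it for the members that missed the threshold. Of 10 hepatocyte markers, listed for H2-Q10, 4 were at 0 in all libraries, 2 were tested and 0 were called in limma, with 1 higher at an unadjusted p under 0.05. Ttr stood at 115, 8.90 and 0.123 FPKM in the 3 KO libraries and at 0.472, 0.172 and 0.285 FPKM in the 3 control libraries, so that KO replicates 1 and 2 were high. Trf stood between 5.46 and 5.81 FPKM in KO and between 4.36 and 5.28 FPKM in control libraries, without overlap. Alb and Afp were at 0 in KO replicate 3, the library with the H2-Q10 value, and at or under 0.788 FPKM in the others.

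The members were last set beside the genes whose profile was most like theirs. The likeness was the Euclidean distance between profiles over the 6 libraries, each gene's log2(FPKM + 1) less its own mean, to the mean profile of the 4 tested members. Of 12814 tested protein-coding genes the nearest 5 were Tap2, Parp10, Slfn5, Apobec1 and Il2rg, at distances between 0.212 and 0.252. The median over all was 0.908, and the nearest of so many genes lie below it by construction. Tap2, the partner of Tap1 in the peptide transporter, stood at 1.38, 2.17 and 1.78 FPKM in the 3 KO libraries and at 0.864, 0.748 and 0.730 FPKM in the 3 control libraries. Parp10 averaged 1.63 ± 0.0982 FPKM in KO and 0.490 ± 0.0247 FPKM in control libraries. It was called higher (limma, adjusted p = 0.0168), but not with any library left out (0.0645 to 0.130) or with the replicate block (0.129). Tap2, Slfn5, Apobec1 and Il2rg were not called (limma, adjusted p = 0.237, 0.0631, 0.141 and 0.258). Tap2, Parp10 and Slfn5 averaged 0.781, 0.490 and 0.849 FPKM in control libraries and so reached the filter only through KO. The 4 tested members themselves lay further from their own mean than the nearest 5, between 0.379 for H2-T23 and 0.786 for H2-T24. These distances describe 6 libraries that fall into 2 groups.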

How the data were processed

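Total RNA of E14.5 palatal shelves was sequenced in 3 KO and 3 control libraries, per the labels. The authors deposited 1 table of FPKM values for 55631 Ensembl gene IDs, and FPKM is how the table itself is named. Genome build mm10 is listed in the submitters' processing notes, as is DESeq2 version 1.5.2. No aligner, counter, annotation release or strand setting is named there. Each column carries a library name, which the sample descriptions give. Symbols, coordinates and exon lengths came from GENCODE M21 (GRCm38), which matched 50824 IDs.

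A linear model of log2(FPKM + 1) on genotype was fitted in limma (version 3.58.1, R version 4.3.3; eBayes, trend on) to 14714 genes averaging 1 FPKM or more. P-values were two-sided, with Benjamini-Hochberg adjustment over all genes tested and a threshold of 0.05, and the model was tested on simulated data. Single values were compared by exact permutation over libraries. Replicate numbers do not pair the libraries in the labels. The members and lists were chosen with earlier results of these data known. Named genes were the 8 members, H2-K1 and H2-D1, up to 4 genes of smallest p per list, the 5 genes of nearest profile and the neighbour of largest change. Further lists covered interferon-response genes, oral epithelium (0 of 10 called, median -0.01, 0 at an unadjusted p under 0.05) and endothelium (0 of 10 called, median -0.17, 3 lower at an unadjusted p under 0.05). Of the interferon-response genes 25 of 32 tested rose (median log2 fold change 1.24), beside 0.326% of all tested genes. Some of the 25 reached the filter only through their KO level, among them Usp18 and Rsad2 with control means of 0.403 and 0.211 FPKM. That count is therefore partly set by the filter. The counts of the class I transcription list are not reported here. Alternatives were other pseudocounts, filters, scalings, variance models, weighted libraries, a replicate block, and each library left out.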

Additional observations from a re-analysis of the deposited data

How the results depend on the processing

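H2-Q4 and H2-T23 were called higher in 16 of 19 settings each, and H2-T22 and H2-T24 in 0 (of 19 and 18). Log2 fold changes ran from 1.07 to 1.52 for H2-Q4, 0.85 to 1.07 for H2-T23, 0.29 to 0.40 for H2-T22 and 0.07 to 0.31 for H2-T24, and 0 changed sign. With single libraries left out, between 0 and 2 members were called higher. Without control replicate 1, 2 or 3 the number was 0, 1 and 0, and without KO replicate 1, 2 or 3 it was 1, 2 and 2. Leaving out any library lowers the number of samples, and why calls were lost was not tested. With no filter 3 members were called, H2-Q7 being the third. Over all genes 48 were called higher and 1 lower. With a filter at 5 FPKM, where 9923 genes are tested, 24 were higher and 0 lower. With no filter and with a filter at 0.1 FPKM 2 genes were lower. With libraries left out the counts ran from 32 to 48 higher and from 1 to 2 lower. The replicate block called 41 genes higher and the same number of members, 2, and left the summed log2 difference at 0.84 (exact p = 0.25, the smallest 3 pairs allow). Deviations of same-numbered libraries correlated at 0.02, 0.31 and -0.24 across genes, and not every library correlated best with its own number. The labels give no pairing, and so few libraries cannot show whether the numbers mark pairs. The summed log2 difference of the members lay between 0.84 and 0.88 under other scalings and without length, and ran from 0.76 to 0.90 with libraries left out. Over the 32 genes with class I H2 symbols it was 1.48. Depth is unknown, so values near the floor carry no counting interval.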
